A study of Mus musculus and Homo sapiens with 9 samples.

Results

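The sites that FLAG-tagged MCM8 occupied in HEK293 cells were compared with the R-loops mapped in the same line, using the peak lists of 2 CUT&Tag libraries. A FLAG-MCM8 peak and an S9.6 peak were taken as shared where they had at least 1 bp in common, and the remaining peaks as FLAG-only or S9.6-only. Of 13295 FLAG-MCM8 peaks, 1795 overlapped an S9.6 peak, and of 15147 S9.6 peaks, 1786 overlapped a FLAG-MCM8 peak. The other 11500 and 13361 peaks stood in 1 list alone. HEK293 is a human embryonic kidney line, wildtype in the labels of all groups used here. For the FLAG-MCM8 library the cells had received a plasmid for FLAG-MCM8, a full-length MCM8 cDNA with an N-terminal tag, and an anti-FLAG antibody was used. For the S9.6 library the label gives the antibody and no transfection. A further pair of libraries of the line was used for comparison, 1 with mouse IgG antibody (IgG) and 1 with S9.6 antibody after transfection with a plasmid for RNH1 (the nuclease RNase H1). Each group held 1 library, of 9 in the series, so no test across samples was possible and peaks were not treated as replicates. The sites are those of an overexpressed, tagged protein, and an anti-FLAG library from cells without FLAG-MCM8 was not analysed here.

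R-loops form where nascent RNA pairs with its DNA template and leaves the other strand single, which happens often near the transcription start site (TSS) of active genes with G-rich transcripts. The S9.6 antibody recognises RNA:DNA hybrids, and RNase H1 degrades the RNA in them. MCM8 is a helicase of the minichromosome maintenance family that acts with MCM9 and HROB in homologous recombination, and DDX5 is an RNA helicase that can unwind RNA:DNA hybrids. In CUT&Tag an antibody guides a transposase that cuts and tags DNA around its target, so a peak is a stretch with many such cuts and its summit is the base with the highest pileup.

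The libraries were checked at the MCM8 gene (chr20:5950652-5998977, hg38) first. The 3 strongest FLAG-MCM8 peaks, ranked by −log10 q (q being the adjusted p-value of the peak caller), all lay on MCM8 coding exons. Their folds, meaning pileup at the summit over the local background, were 21.6 at chr20:5967426-5968037, 11.1 at chr20:5984789-5985006 and 10.2 at chr20:5985914-5986132, and their ends lay 1 to 12 bp from the edges of coding sequence. The strongest S9.6 peak had the coordinates of the first of them, with a fold of 19.7, although its label names no MCM8 plasmid, and the RNH1 list also held it, at rank 4. The IgG list held no peak there. Whether these reads came from plasmid DNA, and whether their source bears on the other shared peaks, was not tested. This site counts as 1 of the shared pairs. The fragment depth that the peak values imply was 8314 per megabase for FLAG-MCM8, 0.8 of the 10395 for S9.6, with IgG at 10923 and RNH1 at 11050.

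The sequences under the strongest shared peaks far from any TSS are shown because they were tandem repeats. Of the shared pairs over 3 kb from any TSS that ranked best in both lists, with no IgG peak, 4 are printed from hg38 (plus strand, 5′ to 3′) across both summits, with the first copy of the repeat unit in capitals.
near NID1, chr1:236097184-236097313: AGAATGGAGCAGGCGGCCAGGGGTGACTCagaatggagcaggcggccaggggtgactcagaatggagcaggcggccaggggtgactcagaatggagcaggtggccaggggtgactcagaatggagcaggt
near PTGIS, chr20:49617480-49617597: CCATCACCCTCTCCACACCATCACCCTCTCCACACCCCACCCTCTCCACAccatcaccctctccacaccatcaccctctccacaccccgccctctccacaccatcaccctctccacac
TTC34 intron, chr1:2652233-2652376: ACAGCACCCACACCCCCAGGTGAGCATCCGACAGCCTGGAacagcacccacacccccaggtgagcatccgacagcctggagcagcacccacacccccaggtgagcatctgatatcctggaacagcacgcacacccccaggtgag
NXN intron, chr17:952504-952797: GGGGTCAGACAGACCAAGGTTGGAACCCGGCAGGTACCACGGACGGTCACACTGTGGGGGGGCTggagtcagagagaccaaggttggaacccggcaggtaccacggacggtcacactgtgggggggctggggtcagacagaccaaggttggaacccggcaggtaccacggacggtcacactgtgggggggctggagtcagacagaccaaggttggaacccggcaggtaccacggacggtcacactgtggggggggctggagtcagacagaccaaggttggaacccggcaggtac
The unit was 29 bp near NID1, 50 bp near PTGIS, 40 bp in the TTC34 intron and 64 bp in the NXN intron. From 85.7% to 99.0% of bases equalled the base 1 unit further on. The NID1 site, in intergenic DNA beside the gene for the basement membrane protein nidogen 1, had a fold of 15.3 in FLAG-MCM8 and 18.9 in S9.6, with the summits 29 bp apart. The folds were 10.7 in both lists near PTGIS, the prostacyclin synthase gene, where the summits lay 17 bp apart. The TTC34 intron site gave 4.18 in FLAG-MCM8 and 4.40 in S9.6, and that of NXN (nucleoredoxin) 7.58 and 8.30. An RNH1 peak covered all 4 sites.

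For contrast, sites of 1 list alone over 3 kb from any TSS are printed in the same way (hg38, plus strand, 151 bases centred on the summit), with the first repeat unit in capitals and the window without a repeat in lower case throughout.
FLAG-only, X chromosome intron, chrX:37892891-37893041: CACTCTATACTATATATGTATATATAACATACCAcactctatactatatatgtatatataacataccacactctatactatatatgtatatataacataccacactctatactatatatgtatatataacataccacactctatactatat
FLAG-only, SLC16A1-AS1 intron, chr1:113036683-113036833: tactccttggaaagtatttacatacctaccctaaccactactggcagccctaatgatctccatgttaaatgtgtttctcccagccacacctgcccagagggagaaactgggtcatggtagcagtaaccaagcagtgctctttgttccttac
S9.6-only, chromosome 11, chr11:134851865-134852015: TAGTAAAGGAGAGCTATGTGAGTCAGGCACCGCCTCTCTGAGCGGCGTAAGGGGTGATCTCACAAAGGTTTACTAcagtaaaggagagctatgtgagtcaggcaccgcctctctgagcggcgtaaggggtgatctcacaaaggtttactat
S9.6-only, chromosome 10, chr10:128464485-128464635: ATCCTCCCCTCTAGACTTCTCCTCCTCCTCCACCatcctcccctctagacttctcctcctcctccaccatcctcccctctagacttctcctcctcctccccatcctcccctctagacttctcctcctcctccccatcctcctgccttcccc
The AT-rich X chromosome repeat, with a FLAG-MCM8 fold of 9.03, matched itself at every base compared (100%) at 34 bp. The SLC16A1-AS1 site, with a fold of 11.4, held no repeat. The printed S9.6-only sites of chromosomes 11 and 10 had folds of 12.3 and 11.3 and units of 75 and 34 bp. The FLAG-only sites of this rank also included the MCM8 exons above. On the S9.6-only side they were an intergenic repeat of 35 bp on chromosome 11 (fold 8.14), a site on chromosome 7 (8.63) and a site near the potassium channel gene KCNC1 (8.65), the last 2 without a repeat. Repeats thus also lay under strong peaks of 1 list alone.

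At promoters the shared pairs held other sequence. Those of FBXO4, ZNF687, NT5C3A and AP2A1 are printed (hg38, plus strand) across both summits with 25 bases on either side. Only short windows that touched no annotated untranslated region were printed, so they do not represent all shared promoters. FBXO4 was a fixed gene, with its FLAG-MCM8 peak at rank 10165, and the others were among the best-ranked pairs. The motifs GGGCGG (the GC box bound by Sp1) and CCAAT are in capitals on either strand.
FBXO4, chr5:41925106-41925197: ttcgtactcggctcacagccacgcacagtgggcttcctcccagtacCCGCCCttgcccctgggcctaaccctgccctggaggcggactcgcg
ZNF687, chr1:151282136-151282186: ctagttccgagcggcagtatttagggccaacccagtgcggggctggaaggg
NT5C3A, chr7:33062971-33063191: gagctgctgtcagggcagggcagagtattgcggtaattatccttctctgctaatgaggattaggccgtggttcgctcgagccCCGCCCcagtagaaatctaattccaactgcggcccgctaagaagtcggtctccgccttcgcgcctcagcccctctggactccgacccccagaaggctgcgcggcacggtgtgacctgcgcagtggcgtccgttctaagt
AP2A1, chr19:49766461-49766623: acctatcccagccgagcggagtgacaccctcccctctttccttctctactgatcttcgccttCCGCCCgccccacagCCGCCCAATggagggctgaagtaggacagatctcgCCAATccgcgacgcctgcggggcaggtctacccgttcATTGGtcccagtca
FBXO4 encodes an F-box protein of a ubiquitin ligase, and its FLAG-MCM8 and S9.6 summits lay at −150 and −109 bp from the TSS, negative meaning upstream. At ZNF687, a zinc finger gene, both summits fell on the same base at −138 bp. They lay at −220 and −390 bp at NT5C3A, which encodes a pyrimidine nucleotidase, and at −515 and −403 bp at AP2A1, a subunit of the clathrin adaptor AP-2. The AP2A1 window held 2 GC boxes and 3 CCAAT motifs, those of FBXO4 and NT5C3A 1 GC box each, and that of ZNF687 neither motif.

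FLAG-MCM8 peaks overlapped an R-loop peak more often at promoters than elsewhere, and R-loop peaks showed a smaller difference in the same direction. A peak was assigned to a promoter where its summit lay within 1 kb of a TSS of any annotated transcript. Of 2826 FLAG-MCM8 promoter peaks, 36.8% (95% Wilson interval 35.1 to 38.6) overlapped an S9.6 peak, against 7.20% (6.72 to 7.71) of 10469 peaks elsewhere, a difference of 29.6 percentage points (Newcombe interval 27.8 to 31.5). All intervals given here cover counting error only. Over the whole list the share was 13.5% (12.9 to 14.1), and 11.8% (11.3 to 12.3) of S9.6 peaks had a FLAG-MCM8 peak. Seen from the S9.6 side, 15.5% (14.6 to 16.4) of 6573 promoter peaks and 8.95% (8.36 to 9.57) of 8574 peaks elsewhere overlapped FLAG-MCM8. Promoters held 58.0% of the shared FLAG-MCM8 peaks, 15.5% of the FLAG-only and 41.6% of the S9.6-only peaks. Shared promoter peaks lay nearest to a protein-coding TSS in 78.1% and to an lncRNA TSS in 16.5% of cases.

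The IgG library was used as the background of this overlap, although it was not matched to FLAG-MCM8. It held 17178 peaks at an inferred depth of 10923 fragments per megabase, against 13295 peaks at 8314. The comparison was not adjusted for depth or for the position of summits within promoters. Of its promoter peaks 13.4% (11.9 to 15) overlapped an S9.6 peak, and of its peaks elsewhere 3.83% (3.54 to 4.15). FLAG-MCM8 thus exceeded IgG by 23.5 percentage points (21 to 25.8) at promoters and by 3.37 (2.79 to 3.96) elsewhere. The S9.6 library from RNH1-transfected cells gave 54.4% at promoters and 20.6% elsewhere. These values, from the antibody of the S9.6 list itself, lay above those of FLAG-MCM8 in both places. An IgG peak covered 8.17% of the shared FLAG-MCM8 promoter peaks and 30.1% of the shared peaks elsewhere, against 3.08% of all FLAG-only peaks.

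Overlap rose with peak strength in both places. Peaks of each list were split into 4 classes of equal size by −log10 p. At promoters the share of FLAG-MCM8 peaks that met an S9.6 peak went from 18.9% in the weakest class through 25.4% and 33.4% to 56.6% in the strongest. Elsewhere it went from 2.77% to 16.8%. IgG promoter peaks ran from 7.59% to 19.4%, so that the strongest IgG class stood near the weakest FLAG-MCM8 class. The S9.6 list seen from its own side rose in both places, from 4.55% to 27.6% at promoters and from 3.71% to 27.3% elsewhere, so that its strongest classes differed little between the places. Shared FLAG-MCM8 peaks had a median fold of 5.11 and a median width of 371 bp, against 4.62 and 293 bp for FLAG-only peaks. The S9.6 medians were 4.99 and 494 bp for shared, and 4.27 and 328 bp for S9.6-only peaks.

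**Figure D1:**
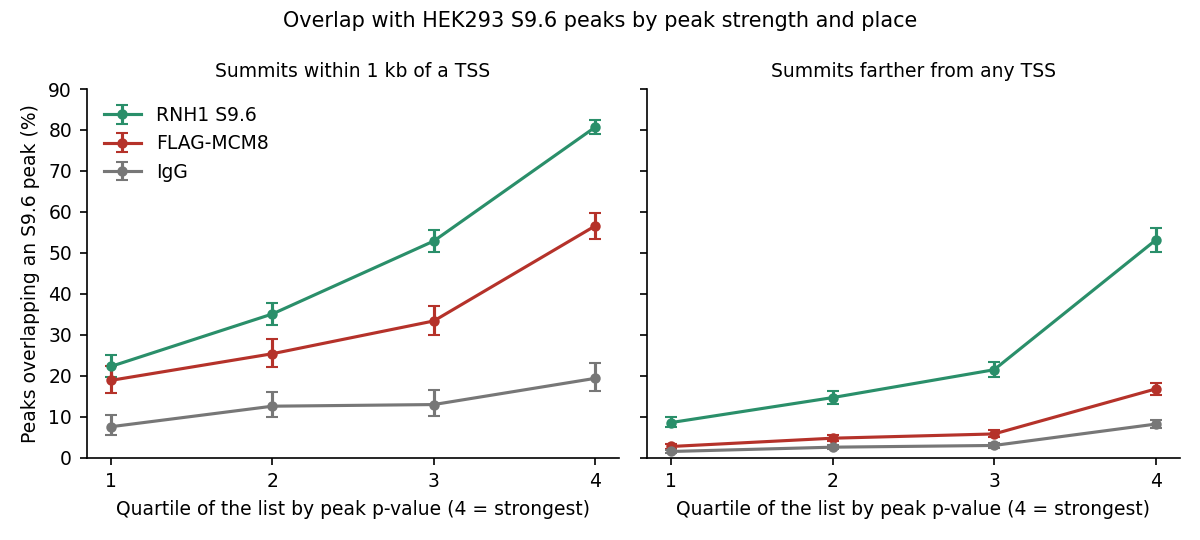
Percentage of RNH1 S9.6, FLAG-MCM8 and IgG peaks that overlapped an HEK293 S9.6 peak, by strength class within each list (1 weakest, 4 strongest by −log10 p), at promoters (left) and elsewhere (right). Points are shares and bars 95% Wilson intervals for counting error only. FLAG-MCM8 rose from 18.9% to 56.6% at promoters and from 2.77% to 16.8% elsewhere, and IgG from 7.59% to 19.4% and from 1.55% to 8.23%.

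Most shared sites also had a peak in the RNH1 list. Of the shared FLAG-MCM8 peaks 68.2% overlapped an RNH1 peak, against 4.29% of FLAG-only peaks. Of FLAG-MCM8 peaks with an RNH1 peak, 71.3% also had an S9.6 peak, and of those without, 4.92%. On the S9.6 side, 69.1% of the shared and 23.5% of the S9.6-only peaks had an RNH1 peak. Sites called in both the S9.6 and the RNH1 library thus held most of the FLAG-MCM8 overlap.

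Chromosomes differed in how often a FLAG-MCM8 peak met an S9.6 peak. On chromosome 19 it was 27.8% (24.0 to 32.0) of 485, and on X 6.96% (5.07 to 9.49) of 517, the highest and the lowest value among chromosomes other than Y, which had 3 peaks. The promoter share of FLAG-MCM8 peaks was 47.4% on chromosome 19 and 13.9% on X. Among the others the overlap broadly rose with the promoter share, but their order did not follow it strictly. Chromosome 21, with an overlap of 22.4%, had a promoter share of 21.1%, and chromosome 17, with 17%, one of 35.5%.

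Away from promoters, many shared sites were tandem repeats. A summit was counted as lying on a tandem repeat where at least 70% of the bases in the 151 bp around it equalled the base a fixed 2 to 75 bp further on. This held for 201 of 754 shared non-promoter FLAG-MCM8 peaks, 26.7% (23.6 to 29.9), and for 245 of 9715 FLAG-only ones, 2.52% (2.23 to 2.85). Windows 5 kb away gave 2.25% and 0.628%. The repeat unit had a median of 40 bp (quartiles 30 and 52). At promoters the shares were 1.44% for shared and 1.18% for FLAG-only peaks, so the feature belonged to the sites elsewhere. The 50 strongest shared peaks away from promoters lay on a repeat in 39 cases, and the 50 strongest FLAG-only peaks in 16.

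The other lists showed the same feature. Of S9.6 non-promoter peaks, 25.4% of the shared and 3.42% of the S9.6-only ones lay on a repeat. Of IgG non-promoter peaks, 22.2% of those overlapping an S9.6 peak and 0.973% of the rest did so, and of RNH1 peaks 19.3% and 4.16%. Some of the strongest sites of this kind were in all 4 lists. An intergenic repeat at chr16:1025245-1025685 had folds of 21.6 in FLAG-MCM8, 22.0 in S9.6, 15 in IgG and 22.1 in RNH1. An intron of SERINC2, a gene for a serine incorporator, held another at chr1:31431753-31432170, with folds of 18.6, 18.1, 13.9 and 19.5 in the same order. An IgG peak covered 49.8% of the shared repeat sites, against 23% of the shared non-promoter sites without a repeat.

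The promoter result was as large without repeats. With them set aside, the promoter share of FLAG-MCM8 exceeded the share elsewhere by 31.3 percentage points (29.4 to 33.1). Away from promoters, 45.1% (40.5 to 49.7) of FLAG-MCM8 peaks on a repeat had an S9.6 peak and 5.52% (5.09 to 5.98) of those on none, and for IgG 47.6% (41.8 to 53.5) and 3.04% (2.77 to 3.32). On repeats the intervals of FLAG-MCM8 and IgG thus overlapped. Without repeats FLAG-MCM8 exceeded IgG there by 2.48 percentage points (1.96 to 3.01). Shared non-promoter peaks lay within 5 Mb of a chromosome end in 35.3% (32.0 to 38.8) of cases, against 12.8% (12.1 to 13.4) of FLAG-only and 20.8% of S9.6-only ones. The control lists were similar. Of non-promoter peaks overlapping an S9.6 peak, 32.2% (28.6 to 36.1) in IgG and 31.6% in RNH1 lay there, against 8.74% and 20.3% of the rest.

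**Figure D2:**
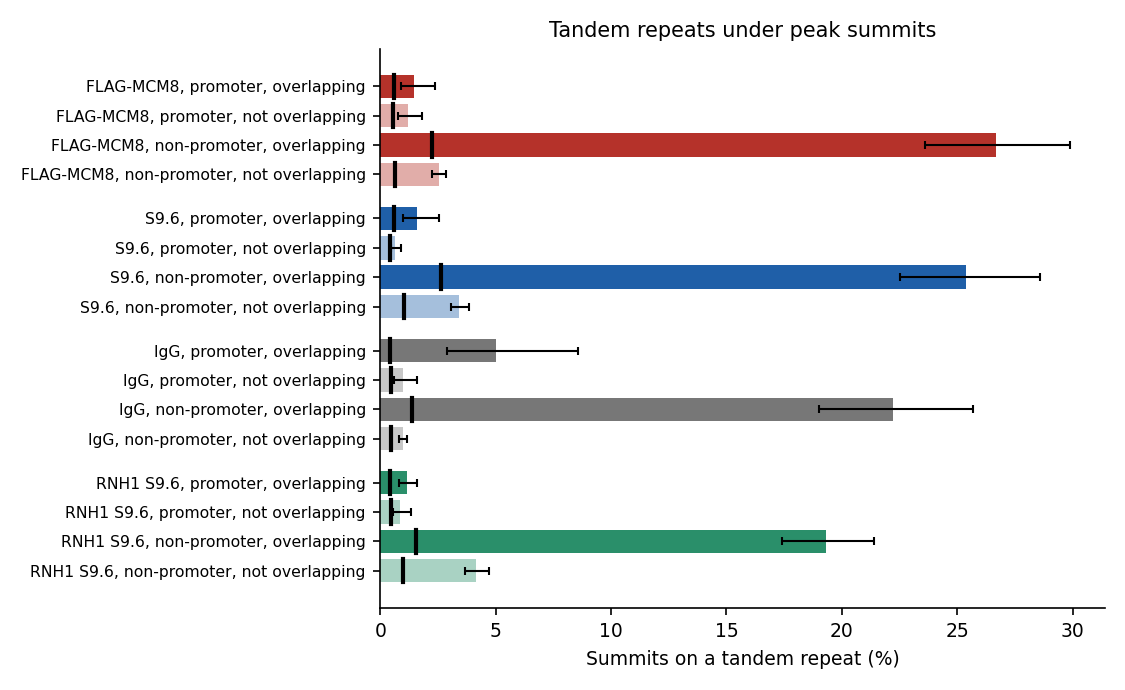
Percentage of peak summits on a tandem repeat, for promoter and non-promoter peaks that did or did not overlap a peak of the partner list (S9.6, or FLAG-MCM8 for the S9.6 list). Bars are shares, whiskers 95% Wilson intervals for counting error only, and thick vertical lines the share in windows 5 kb away. Non-promoter peaks that overlapped stood at 19.3% to 26.7% in the 4 lists, and those that did not at 0.973% to 4.16%.

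Setting aside both repeats and IgG peaks left 426 of the 754 shared non-promoter peaks (56.5%). Of these 53.1% lay in introns, 39.9% between genes and 1.41% on coding exons. A TSS lay within 3 kb of 22.1% (18.4 to 26.2) of them. It did so for 14.7% (14 to 15.4) of all FLAG-only non-promoter peaks, from which repeats and IgG peaks were not removed. Runs of at least 6 CA dinucleotides were searched on both strands in 201 bp around the summit, in windows without a repeat, IgG peaks included. They stood in 6.51% (4.74 to 8.88) of 553 shared non-promoter windows, against 1.89% (1.63 to 2.18) of 9469 FLAG-only ones.

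At promoters, the shared sites were richer in CpG than the FLAG-only ones. The median GC content of the 201 bp around FLAG-MCM8 summits was 64.7% at shared and 58.2% at FLAG-only promoter peaks, and the median ratio of observed to expected CpG 0.750 and 0.347. S9.6 summits gave 65.2% and 0.765 for shared, and 64.2% and 0.692 for S9.6-only promoter peaks. All canonical protein-coding TSSs gave 66.7% and 0.816, and IgG promoter peaks 53.2% and 0.263. FLAG-only promoter summits thus lay between the IgG summits and the shared ones.

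The GC box GGGCGG was found on either strand in 52.7% (49.7 to 55.8) of shared and 23% (21.1 to 25) of FLAG-only promoter windows of FLAG-MCM8. It was in 44.9% of S9.6-only promoter windows, 12.9% of those of IgG and 53.7% of all canonical TSS windows. A G-quadruplex pattern, here 4 runs of at least 3 G with gaps of 1 to 7 bases on either strand, was in 22.8% of shared and 13.4% of FLAG-only promoter windows, and in 25.4% of TSS windows. CCAAT was in 24.9% and 18.2%, and in 25.3% of TSS windows. A match describes letters in the window and is no evidence of binding.

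The summits of shared pairs lay close, but seldom on the same base. The median distance between the FLAG-MCM8 and S9.6 summits over 1795 pairs was 150 bp (quartiles 54 and 269), and 36 pairs shared a summit base. They were within 50 bp in 24.0%, within 300 bp in 79.9%, and within 500 bp in 95%. The FLAG-MCM8 summit lay inside the S9.6 peak in 79.3% of pairs and the S9.6 summit inside the FLAG-MCM8 peak in 69.4%. Both peaks had at least 50% of their length in common in 57.4% of pairs.

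The distance was like that of the IgG list. Its median was 156 bp where both summits lay at promoters (n = 1023) and 133 bp where neither did (n = 749). Among the latter, pairs on a repeat had 94.5 bp (n = 200) and the others 155 bp (n = 549). It was 105 bp where both peaks were 400 bp or narrower. The RNH1 and S9.6 lists, with the same antibody, gave 115 bp, and the IgG and S9.6 lists 153 bp. Because width bounds the distance of overlapping peaks, these medians describe pairs and do not locate the protein. In 12 pairs both peaks had identical ends, among them the MCM8 exon pair and those nearest to GALNT18, ARRDC4, CPPED1 and ITGB1BP1, chosen after their values were seen.

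**Figure D3:**
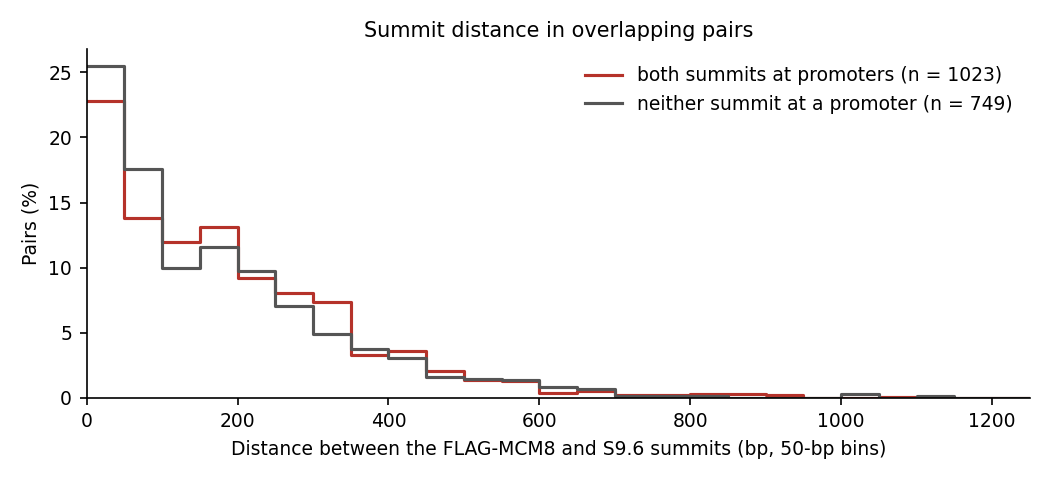
Distance in bp between the FLAG-MCM8 and S9.6 summits of shared pairs, in bins of 50 bp, as a percentage of pairs. The 1023 pairs at promoters had a median of 156 bp and the 749 pairs elsewhere 133 bp, and both distributions fell off together.

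Both summits were read against the direction of transcription in 755 pairs where each lay within 1 kb of the same canonical TSS of a protein-coding gene. Both lay upstream in 362 pairs and both downstream in 209. In 119 the FLAG-MCM8 summit lay downstream and the S9.6 summit upstream, and in 65 the reverse. FLAG-MCM8 summits were thus the more often downstream, in 43.4% (39.9 to 47.0) of the pairs against 36.3% (32.9 to 39.8) for S9.6. Where the sides differed, it was FLAG-MCM8 that lay downstream in 64.7% (57.5 to 71.2). The median position was −55 bp for FLAG-MCM8 and −86 bp for S9.6.

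The order of the summits along the gene was nearly even. FLAG-MCM8 lay upstream of S9.6 in 346 of 739 pairs with different summits, 46.8% (43.2 to 50.4), and downstream in 393. Of pairs within 50 bp of each other, 95.5% had both summits on the same side of the TSS, and of those over 300 bp apart 44.1%. In the latter, 56.5% (49.0 to 63.7) of FLAG-MCM8 summits and 32.4% (25.8 to 39.7) of S9.6 summits lay downstream. The S9.6 summit was the nearer to the TSS in 54.8% (51.2 to 58.4) of pairs.

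FLAG-only summits lay more often downstream than shared ones. With each summit read at its own nearest canonical TSS within 1 kb, 43.7% (40.3 to 47.3) of shared and 55.2% (51.3 to 59.1) of FLAG-only summits lay downstream, and for S9.6 36.9% (33.5 to 40.4) of shared and 44.9% (43.3 to 46.6) of S9.6-only summits. IgG gave 55.9% (51 to 60.7), near FLAG-only, and RNH1 45.0%. Shared FLAG-MCM8 summits were within 200 bp of the TSS in 44.1%, FLAG-only summits in 31.3% and IgG summits in 22.1% of cases. A TSS of another gene on the opposite strand lay within 1 kb at 52.3% (48.8 to 55.9) of the shared and 31.8% (28.3 to 35.5) of the FLAG-only sites. Such a TSS also lay near 38.9% (37.3 to 40.5) of the S9.6-only sites and 29.1% of all canonical TSSs. At promoters without such a TSS, FLAG-MCM8 summits of shared pairs were downstream in 43.3% and S9.6 summits in 36.1%.

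**Figure D4:**
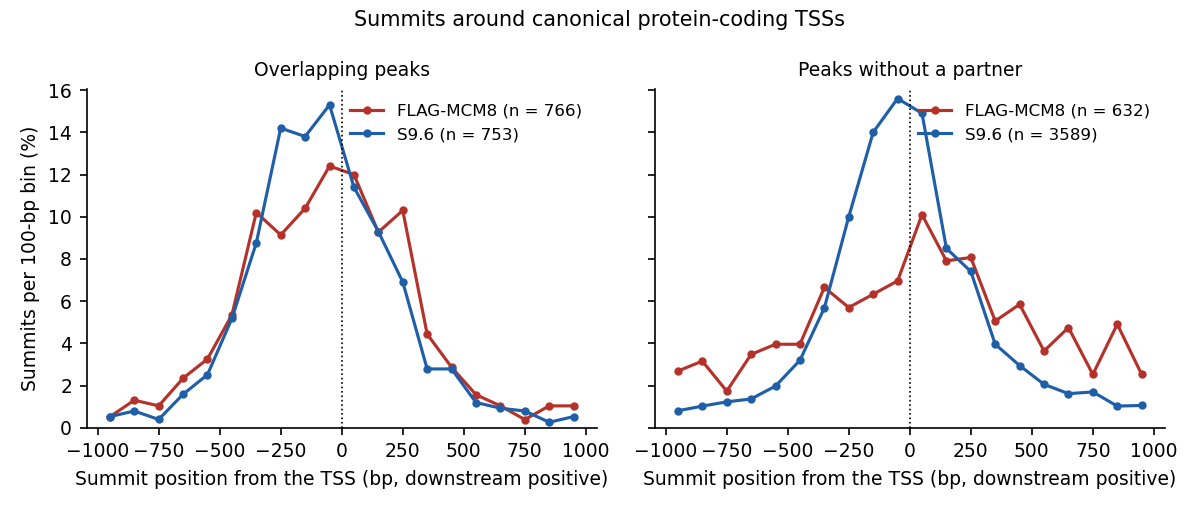
Position of summits relative to the nearest canonical TSS of a protein-coding gene (bp, negative upstream, bins of 100 bp), as a percentage of summits within 1 kb, for shared (left) and unshared (right) FLAG-MCM8 and S9.6 peaks. Shared summits crowded within 200 bp of the TSS (44.1% for FLAG-MCM8, 49.8% for S9.6), as did S9.6-only summits (53.0%), and FLAG-only summits less so (31.3%).

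Single genes show how far the summits parted. FLAG-MCM8 lay farthest upstream of S9.6 at LYRM4, an iron-sulfur cluster assembly factor, with summits at −453 bp for FLAG-MCM8 and 467 bp downstream for S9.6. It lay farthest downstream at ARL6IP6, with the FLAG-MCM8 summit 203 bp downstream and the S9.6 summit at −873 bp, and folds of 5.04 and 7.31. The other extremes were TOR1AIP1, LZTS3, BAG6 and NIPBL, 636 to 852 bp apart with FLAG-MCM8 upstream, and TRMT1L, ACOT9, ZNF250 and CDS2, 787 to 893 bp apart with it downstream. TOR1AIP1 had an IgG peak on the S9.6 peak and NIPBL, which encodes the cohesin loader, on the FLAG-MCM8 peak.

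GC skew, the excess of G over C on the coding strand that is known to favour R-loops, was measured in the 500 bp downstream of canonical TSSs with no opposite TSS nearby. Its median was 0.0904 at 427 genes with both peaks, 0.0470 at 387 with FLAG-MCM8 alone, 0.0694 at 2169 with S9.6 alone and 0.0457 at 11217 with neither. The skew was positive at 75.2% (70.9 to 79.0), 64.6% (59.7 to 69.2), 71.9% (69.9 to 73.7) and 64.5% (63.6 to 65.4) of them. Genes with FLAG-MCM8 alone thus lay by those with neither peak, and genes with an S9.6 peak had the higher skew.

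By gene, a summit within 1 kb of the canonical TSS was required. Of 20033 protein-coding genes, 1605 (8.01%) had a FLAG-MCM8 summit, 4920 (24.6%) an S9.6 summit and 1015 (5.07%) both. The 1015 genes rested on 839 FLAG-MCM8 peaks, since neighbouring genes share promoters, and in 88.6% the strongest peaks of the lists overlapped. FLAG-MCM8 was present at 20.6% (19.5 to 21.8) of genes with an S9.6 summit and at 3.90% (3.61 to 4.22) of genes without. Of genes with FLAG-MCM8, 63.2% (60.9 to 65.6) had S9.6, and of genes with IgG 42.4% (37.9 to 47.1). An RNH1 summit was at 81.1% of genes with both, 51.1% with S9.6 alone, 22.5% with FLAG-MCM8 alone and 6.73% with neither.

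The strongest shared promoters without an IgG peak, by the worse of their ranks in the lists, included genes of nuclear transport and of protein phosphatase 2A. KPNB1, importin β1, had folds of 8.75 in FLAG-MCM8 and 11.2 in S9.6, with summits at −284 and −239 bp. NUP98, a nucleoporin, had 7.21 and 10.7, with the FLAG-MCM8 summit 234 bp downstream and the S9.6 summit at −190 bp. PPP2R1A, the scaffold subunit of protein phosphatase 2A, had 7.19 and 9.44, and ENSA, whose product inhibits that phosphatase at mitosis, 9.36 and 9.22. These were picked by rank, and no enrichment of either function was tested. ZNF687 had folds of 7.38 and 7.22, NT5C3A 9.6 and 9.76, and AP2A1 6.13 and 8.01. RAB1A, a GTPase of transport from the endoplasmic reticulum, had 8.39 and 9.48. The pair between NDUFA11, a subunit of respiratory complex I, and VMAC had 8.52 and 8.78, and the pair at CCT3, a chaperonin subunit, and TSACC 7.71 and 9.13. An RNH1 summit was at all 10.

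Among the strongest FLAG-only promoter peaks, 3 of 10 had an RNH1 summit at the gene. SRSF1, a splicing factor, led with a fold of 9.17, followed by the peak at ENKUR and THNSL1 (8.89), SMC5, of the SMC5/6 complex (8.18), the chromatin reader L3MBTL1 (8.18) and CSRP1 (7.90). CUL1, the scaffold of SCF ubiquitin ligases, and GIGYF2, a translational repressor, had 7.82 each, GSTM4, a glutathione transferase, 7.08, the sialidase gene NEU1 6.38 and CCNF, which encodes cyclin F, 6.14. The RNH1 summits were at SRSF1, ENKUR and GIGYF2, with RNH1 folds of 4.44, 4.6 and 5.10.

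The strongest S9.6-only promoter peaks all had an RNH1 summit. ZNF790 had an S9.6 fold of 10.8, the ubiquitin ligase gene TRIM37 10.2, NKTR 10.1, ICE1, of the little elongation complex, 9.53, and TMEM87B and the peak at KCTD9 and CDCA2 9.04 each. INPP5A, an inositol phosphatase, had 8.35, KANSL1, of a histone acetyltransferase complex, 8.10, CCDC9 7.92 and RAB5B, a GTPase of early endosomes, 6.82.

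Genes of the MCM8 complex and of hybrid resolution were then read singly. Neither MCM8 nor MCM9 had a FLAG-MCM8 or S9.6 summit at its TSS, and HROB, which loads them, had an S9.6 summit alone (fold 3.88). DDX5 had both, with a fold of 6.16 for FLAG-MCM8 at −906 bp and of 6.82 for its strongest S9.6 peak at −216 bp. That FLAG-MCM8 peak overlapped a weaker S9.6 peak, with a fold of 4.07. DHX9, an RNA helicase, and RNASEH1 itself had S9.6 summits alone, with folds of 5.58 and 5.30. Among cell cycle genes, CDK4 had both (5.18 in FLAG-MCM8 and 6.08 in S9.6), as did the gene of the replication inhibitor geminin, GMNN (8.15 and 5.62), the deubiquitinase gene USP37 (6.40 and 7.78) and FBXO4 (4.29 and 6.10). An RNH1 summit was at the first 3 of these and not at FBXO4.

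Gene lists from textbook membership were set beside the background of 5.07% of genes with both summits and of 20.6% of S9.6 genes with FLAG-MCM8. Splicing factors and hnRNPs, which bind and process nascent RNA, had both at 18 of 69 genes, 26.1% (17.2 to 37.5), and FLAG-MCM8 at 45.0% (30.7 to 60.2) of the 40 with S9.6. HNRNPD had folds of 6.14 in FLAG-MCM8 and 10.4 in S9.6, HNRNPA0 6.40 and 9.10, HNRNPL 6.13 and 5.91, and HNRNPA1 7.45 and 5.77, the last with an IgG summit. The lower bounds of both shares lay above the background values.

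Regulators of mitotic phase transition had both summits at 15 of 95 genes, 15.8% (9.81 to 24.4), with S9.6 at 49 and FLAG-MCM8 at 16. FLAG-MCM8 was thus at 30.6% (19.5 to 44.5) of the S9.6 genes, an interval that includes the 20.6% of all genes. ENSA led, followed by FBXO5, an inhibitor of the anaphase-promoting complex (8.17 and 7.39, with an IgG summit), CDK4 and USP37. The 51 genes of homologous recombination and the Fanconi anaemia pathway had both at 7, 13.7% (6.81 to 25.7), and S9.6 at 30. FLAG-MCM8 was at 23.3% (11.8 to 40.9) of these S9.6 genes, near the share of all genes. Among those with both were RMI1 (6.04 and 6.80, a pair shared with its neighbour HNRNPK), FANCA (5.20 and 5.59), MRE11 (4.98 and 7.67) and RAD54L (5.33 and 4.32, with an IgG summit).

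DNA replication genes had both at 5 of 58, 8.62% (3.74 to 18.6), and FLAG-MCM8 at 19.2% (8.51 to 37.9) of the 26 with S9.6. Those with both were PCNA, the sliding clamp (7.5 and 9.38), ORC6, of the origin recognition complex (5.99 and 8.89), GMNN, MCM7 (7.31 and 3.70) and POLE4 (6.86 and 4.96). Of the 11 genes of the MCM family and its partners, MCM7 had both, MCM2 (3.73) and MCM4 (4.62) FLAG-MCM8 alone, MCM6 (5.99) and HROB S9.6 alone, and MCM3, MCM5, MCM8, MCM9, MCM10 and MCMBP neither.

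Genes that resolve or prevent R-loops had FLAG-MCM8 at 12 of 52, S9.6 at 16 and both at 7, 13.5% (6.68 to 25.3). FLAG-MCM8 was at 43.8% (23.1 to 66.8) of the S9.6 genes, so that both lower bounds lay above the background. This list is not independent of the splicing list. SRSF1, SRSF2, SRSF3, DHX15 and HNRNPU stood in both lists, and SRSF3 and DHX15 had both summits. The shares without these common genes were not computed. The other R-loop genes with both included DDX5, the BLM helicase (7.0 and 4.41), TDRD3 (5.13 and 7.52), which acts with topoisomerase 3β, and THOC6, of the THO complex (3.57 and 2.86). Immediate-early genes had both at 4 of 26, 15.4% (6.15 to 33.5), namely FOSL2 (6.78 and 5.32), JUN (5.15 and 5.24), SRF (5.05 and 5.87) and IER5 (4.37 and 4.63). FLAG-MCM8 was at 50% (21.5 to 78.5) of the 8 immediate-early genes with S9.6. Both lower bounds lay only just above the background, on few genes. No allowance was made for the number of lists, here or for the lists above.

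Other families stood nearer to the background of 5.07% in the share with both summits, but not always in single summits. Over all protein-coding genes, 8.01% had a FLAG-MCM8 and 24.6% an S9.6 summit. Ribosomal protein genes had S9.6 at 27 of 80 and both at 5, 6.25% (2.70 to 13.8), with FLAG-MCM8 at 18.5% (8.18 to 36.7) of the S9.6 genes. Those with both included RPL7 (4.99 and 5.72), RPS29 (5.08 and 5.37), RPLP2 (3.98 and 3.70) and RPL36AL (4.62 and 5.08). Proteasome subunits had S9.6 at 15 of 33, 45.5% (29.8 to 62.0), above the background. They had both at PSMA3 alone (5.29 and 3.88), 3.03% (0.537 to 15.3), or 6.67% (1.19 to 29.8) of those with S9.6. Histone genes had FLAG-MCM8 at 10 of 60, 16.7% (9.31 to 28.0), above the background, and S9.6 at 11, 18.3% (10.6 to 29.9). They had both at 4, 6.67% (2.62 to 15.9). These were H2AC11 and H2BC11, which share 1 pair (5.87 and 6.18, with an IgG summit), H4C1 (5.31 and 4.96) and H4C14 (4.97 and 3.67). FLAG-MCM8 was at 36.4% (15.2 to 64.6) of the histone genes with S9.6. Keratin genes, which epithelia use, had each summit at 1 of 51, 1.96% (0.347 to 10.3), and both at none. For S9.6 this was below the background. Expression was not analysed here, so its part in these shares was not tested.

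**Figure D5:**
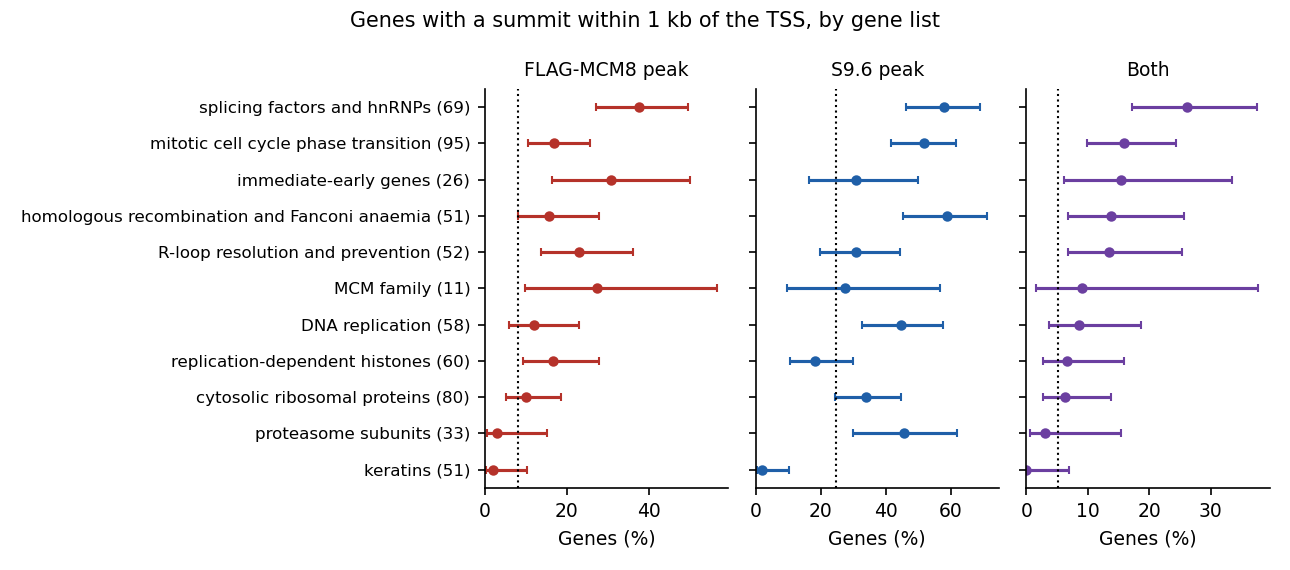
Percentage of the genes of each list (number of genes in parentheses) with a FLAG-MCM8 summit, an S9.6 summit or both within 1 kb of the canonical TSS. Points are shares, bars 95% Wilson intervals for counting error only, and dotted lines the shares over 20033 protein-coding genes (8.01%, 24.6% and 5.07%). Splicing factors and hnRNPs stood highest for both, at 26.1%, and keratins lowest, at 0 of 51.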

How the data were processed

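The data were CUT&Tag peak lists of HEK293 cells, called by the authors with MACS2 in 1 library per group, after read trimming with Trimmomatic and alignment to hg38 with Bowtie2 per the labels. The submitters' processing notes give MACS2 2.1.2. The deposited values are the fold ratio of pileup over local background, −log10 p-values and −log10 q-values, a score and the summit offset. Skipped peak numbers (1465 in FLAG-MCM8, 1790 in S9.6) show that peaks were removed after calling, by a rule not given in the sources used here. Mitochondrial peaks (8 and 9) were left out here. The fragment depth per megabase was inferred, not stated. The local background was recovered from the deposited fold and p, and its lowest value was divided by the narrowest peak width of the list. This takes that width as the fragment length, which was not checked. The mouse lists were not used.

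Summits were start plus offset. A FLAG-MCM8 peak with several S9.6 partners kept the nearest summit. TSSs came from GENCODE 44, the canonical transcript for genes. Shares were given with Wilson and differences with Newcombe intervals (95%), and no p-value was computed. Overlap, pairing and repeat scripts were tested on simulated data. Python 3.11.15, pandas 2.3.3, NumPy 2.4.6, pysam 0.24.0 and matplotlib 3.10.9 were used. Flanks lay 5 kb from the summit. A repeat-masked share was planned and not run, since the genome used here carries no masking.

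The comparison, the lists and the named genes were chosen with earlier results of these data known. Named were a fixed set of genes, the 10 best-ranked promoter peaks of each class and the 5 best-ranked sites over 3 kb from a TSS, all without IgG peaks, the 5 pairs with the largest summit offset in each direction, and up to 4 genes with both summits per list. Some of the named sites are not reported here. Alternatives were other overlap rules, peak cut-offs, promoter definitions, and lists without IgG peaks or repeats.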

Additional observations from a re-analysis of the deposited data

Results flagged for a closer look

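The RNH1 S9.6 list, which the comparison used only as a background, held the same MCM8 coding exon peak as FLAG-MCM8 and S9.6, with a fold of 17.7, while the IgG list held none. It stood out as a signal in a library whose label names no MCM8 plasmid. Its cause was not tested.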

How the results depend on the processing

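With 59 alternatives run, 31 moved a value by less than its counting interval or 1.5 times and 28 moved it by more. A change of direction was defined only for the promoter difference and the excess over IgG at promoters. These had 7 and 6 alternatives, and none turned the direction. The overlapping share of FLAG-MCM8 peaks (13.5%) was 7.75% where 50% of both peaks had to overlap, 16.8% with a gap of up to 1 kb allowed, 46.9% at q of 1e-10 or lower, 11.8% at a fold of at least 4, 17.1% among the 5000 strongest of each list, 11.6% without IgG peaks and 12% without tandem repeats. The S9.6 share (11.8%) was 6.81%, 15%, 11.4%, 13.7%, 17.1%, 10.2% and 10.5%, in the same order. The promoter difference (29.6 percentage points) was 15.4 with 50% overlap, 32.5 among the 5000 strongest, 20.5 with promoters of 3 kb and 33.4 with protein-coding TSSs. The excess over IgG at promoters (23.5) was 12.7, 28.0 and 18 under the first 3 of these. The median summit distance (150 bp) was 106.0 with 50% overlap and 185.0 for nearest summits within 1 kb. The repeat share of shared non-promoter peaks (26.7%) was 37.5% at a match of 60%, 19.1% at 80% and 19.2% without IgG peaks, and of FLAG-only peaks (2.52%) 4.09%, 1.45% and 2.19%. The causes were not tested. The repeat alternatives and those on counts of genes were chosen after seeing the data. Counts of genes with both summits (1015) ran from 771 to 951, and sides of the TSS stayed within their intervals. No paired analysis was possible because each group has 1 library and no test was run. FLAG-MCM8 stood at an inferred 0.8 of the S9.6 depth, with no replicate. A peak missing from a list was thus not detected at this depth and is not shown to be absent.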

Other observations

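The strongest peaks of the other lists included genes too. The strongest IgG peak lay over GH1 (chr17:63916679-63917311, fold 18.1), the growth hormone gene, and the strongest RNH1 peak at the same place (fold 16.1). The IgG list also held DDX5 coding exon peaks at chr17:64499913-64500779 (fold 12.3, rank 2) and chr17:64502966-64503570 (fold 2.73, rank 6). The FLAG-MCM8 and S9.6 peaks at DDX5 described above lay elsewhere.

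In S9.6 genes the share with a FLAG-MCM8 summit rose with the S9.6 −log10 q, from 10.7% in the weakest of 4 equal classes through 14.4% and 19.3% to 38.2% in the strongest.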
